A study of Homo sapiens with 12 samples.

Results

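The genes described here are 9 enzymes and assembly factors of energy metabolism that are known in the field as direct or proposed targets of the transcription factor p53: TIGAR, GLS2, SCO2, CPT1A, CPT1C, LPIN1, ACAD11, ALDH4A1 and PANK1. They were chosen by gene name, and all 9 were found among the 25914 genes that both comparisons list. RNA-seq was performed on RPE-1 hTERT cells, an immortalized noncancerous line from retinal pigment epithelium, and on HCT116 cells, a colon carcinoma line, and both carry the label wild-type. Cells of each line were treated for 24 h with 10 µM Nutlin-3a, which occupies the p53 pocket of MDM2 and lets p53 build up, or with the solvent DMSO, and each of the 4 groups holds 3 libraries. The values are 1 comparison of Nutlin-3a with DMSO per cell line, as the authors deposited it: a log2 fold change with its standard error (SE) and an adjusted p-value, in which the replicates are already combined. Values of single libraries and reads per library were not analysed here. The SE of the authors' fit is thus the only measure of precision, and it does not show directly how the replicates of a line agree.

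p53 is best known for halting the cell cycle, and it also acts on how cells use glucose, glutamine and fat. TIGAR is a phosphatase that lowers fructose-2,6-bisphosphate and so slows glycolysis, GLS2 is the mitochondrial glutaminase that turns glutamine into glutamate, and SCO2 delivers copper to cytochrome c oxidase of the respiratory chain. CPT1A and CPT1C belong to the carnitine palmitoyltransferases, of which CPT1A lets long-chain fatty acids enter mitochondria. LPIN1 is a phosphatidate phosphatase and a coactivator of fatty acid oxidation genes, ACAD11 is an acyl-CoA dehydrogenase, ALDH4A1 catalyses the second step of proline breakdown, and PANK1 starts the synthesis of coenzyme A.

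MDM2 and CDKN1A, 2 established p53 targets, rose in both lines and serve as a check of the treatment. MDM2 had a log2 fold change of 3.95 (SE 0.11) in RPE-1 and 4.14 (SE 0.11) in HCT116, and CDKN1A had 3.94 (SE 0.22) and 4.12 (SE 0.22). The base mean, the mean normalized count that the tables give for each gene, is the same in both comparisons and ranged from 52.2 for ACAD11 to 2456 for LPIN1. Which libraries it averages is not given in the sources used here, and they may go beyond these 12, so it serves only as a rough sign of read depth and gives no level for either line, so that neither the cell lines' identity nor the level of an enzyme in 1 line could be checked. The SE of the 9 genes lay between 0.069 and 0.88 on the log2 scale. The median log2 fold change over all genes was 0.06 in RPE-1 and 0.09 in HCT116. The libraries come from bulk cultures, in which a moderate change in every cell and a larger change in some cells cannot be told apart.

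p53 binds to pairs of a decamer with the order of 3 purines, a C, 2 bases that are A or T, a G and 3 pyrimidines. Windows of 5000 bases on either side of each RefSeq start (GRCh38.p14) were searched in hg38 for 2 such decamers without a spacer, with the C and the G of both intact and at most 2 mismatches elsewhere. The decamer reads the same on both strands, so 1 search covers both. RefSeq windows were at hand for 7 of the 9 genes, all but SCO2 and ACAD11. Of these 7, 4 held a match, against 9.22% of the 13603 listed genes that have such a window, and genes with several starts have more sequence searched. The genes were chosen as known or proposed p53 targets, so this count is a description and no evidence about such targets. The matches are shown on the strand of the gene, 5′ to 3′, with the central 4 bases of each decamer in capitals, and negative positions lie upstream of the start. All matches found are shown. GLS2 and PANK1 had the largest increases in HCT116, while CPT1A and LPIN1 did not pass an adjusted p under 0.05 there. In RPE-1, GLS2 again had the largest log2 fold change, 3.92. PANK1 (0.44), LPIN1 (0.43) and CPT1A (0.26) had lower values there than TIGAR (2.63), ALDH4A1 (0.93) and CPT1C (0.87), which held no match. TIGAR and ALDH4A1 rose in both lines. Whether a match goes with the response was not tested.

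GLS2 at chr12:56488113-56488132, position 29 from the RefSeq start and within a coding exon: aggCTTGctggggCATGcgc

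PANK1 at chr10:89645256-89645275, position −33 from the nearest start and outside the gene: gggCAGGactgggCATGctc

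PANK1 at chr10:89647250-89647269, position −2027 from that start: aggCAAGcccaggCATGgtg

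CPT1A at chr11:68844730-68844749, position −472 from the start and outside the gene: aggCATGgcgggaCTTGcct

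LPIN1 at chr2:11720018-11720037, in an intron and at position −4297 from the nearest start: cagCTTGctccgaCTTGctt

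Every match had 2 mismatches. TIGAR, ALDH4A1 and CPT1C held none in their windows, which says only that these letters are not there. A match is a description of the sequence and no measurement of p53 binding.

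In RPE-1 cells, 7 of the 9 genes rose under Nutlin-3a, where a call needs an adjusted p under 0.05 (Benjamini–Hochberg over all genes listed), none fell, and SCO2 and ACAD11 did not pass. Of all genes listed, 19.3% were called higher and 13.6% lower by the same rule. The median log2 fold change of the 9 genes was 0.46. In HCT116 cells, GLS2, PANK1, TIGAR and ALDH4A1 rose and CPT1C fell, so that 4 of 9 were called higher against 14.9% of all genes and 1 was called lower against 12.2%, and the median was 0.43. GLS2, TIGAR, ALDH4A1 and PANK1 were higher in both lines, a call that 1873 of the 25914 genes share. The 9 genes were chosen as known p53 targets and with earlier results of these data known, so these counts are a description and no evidence about p53 targets as a class.

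The lines were compared by the difference of their log2 fold changes, RPE-1 minus HCT116, in a two-sided normal test on the deposited SEs, adjusted over 20764 genes whose base mean was 10 or more. TIGAR, CPT1C, CPT1A and LPIN1 had the higher log2 fold change in RPE-1, 4 of 9 against 11.3% of all genes tested. PANK1 had the higher one in HCT116, 1 of 9 against 10.4%. GLS2, SCO2, ACAD11 and ALDH4A1 did not pass, which does not show that they responded alike.

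**Figure D1:**
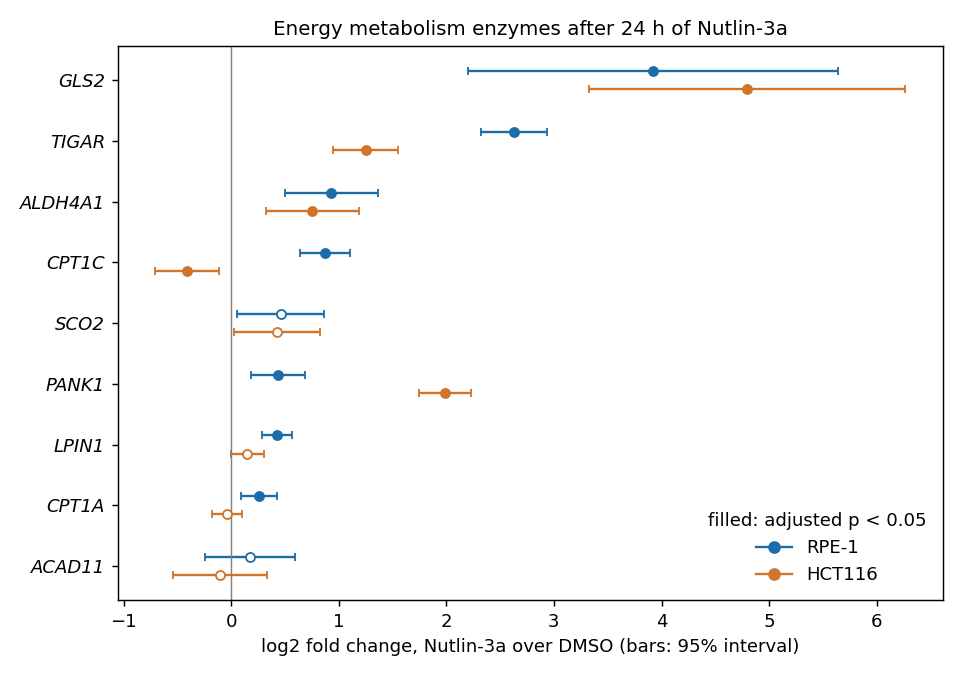
Log2 fold change of the 9 genes with Nutlin-3a over DMSO (horizontal axis) in RPE-1 (blue) and HCT116 (orange), with 95% intervals from the deposited standard errors; filled points have an adjusted p under 0.05. GLS2 has the largest values and the widest intervals in both lines, and the intervals of the lines are apart for TIGAR, CPT1C and PANK1.

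GLS2 (ENSG00000135423, chr12:56470944-56488414 on the minus strand in hg38, as all positions here) had the largest change of the 9 genes in both lines. In RPE-1 its log2 fold change was 3.92 (SE 0.88, adjusted p = 5.3e-05), a 15.2-fold increase with a 95% interval from 4.60-fold to 49.96-fold. In HCT116 the log2 fold change was 4.79 (SE 0.75, adjusted p = 2.39e-09), a 27.7-fold increase with an interval from 10.0-fold to 76.8-fold. Among the 25914 genes, GLS2 ranked 42nd by log2 fold change in RPE-1 and 37th in HCT116. The intervals are wide, and the direction is much better fixed than the size. The base mean of GLS2 was 203.4, while CPT1C, at 154.8, had SEs of 0.12 in RPE-1 and 0.15 in HCT116. Why the SEs of GLS2 are larger was not tested. The difference between the lines was −0.87 (SE 1.15, adjusted p = 0.678), with an interval from −3.13 to 1.39 that leaves room for a several-fold difference either way. On the other strand, exons of SPRYD4 cover 77.1% of the exon bases of GLS2 in GENCODE 44. SPRYD4 rose by itself, with 0.49 (SE 0.10, adjusted p = 2.45e-06) in RPE-1 and 0.998 (SE 0.10, adjusted p = 1.46e-20) in HCT116. The authors counted reads by strand, and the part of SPRYD4 reads in the value of GLS2 was not tested.

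Of 7 further genes of glutamine and glutamate metabolism, 5 fell and none rose in RPE-1, while 4 fell and 1 rose in HCT116. For comparison, 13.6% of all genes were called lower and 19.3% higher in RPE-1, and 12.2% lower and 14.9% higher in HCT116. The alanine transaminase gene GPT2 fell by 0.80 (SE 0.13, adjusted p = 3.83e-09) on the log2 scale in RPE-1 and fell by 1.16 (SE 0.13, adjusted p = 1.65e-18) in HCT116. The aspartate transaminase gene GOT1 fell by 0.44 (SE 0.08) in RPE-1 and fell by 0.67 (SE 0.08) in HCT116. GLUD2, a near-identical copy of the glutamate dehydrogenase gene GLUD1 whose reads may be split with it, fell by 0.37 (SE 0.15) in RPE-1 and fell by 0.51 (SE 0.15) in HCT116. GLUL, which makes glutamine from glutamate, fell by 0.42 (SE 0.16, adjusted p = 0.0302) in RPE-1 and had −0.10 (SE 0.16, adjusted p = 0.728) in HCT116. GOT2, the mitochondrial aspartate transaminase, fell in RPE-1 by 0.22 (SE 0.07) and was the 1 gene of this list that rose in HCT116, with 0.40 (SE 0.07), and was named after its values were seen.

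TIGAR (ENSG00000078237, chr12:4307763-4360028 on the plus strand) rose in both lines, by more in RPE-1. Its log2 fold change in RPE-1 was 2.63 (SE 0.16, adjusted p = 4.72e-61), a 6.18-fold increase (95% interval 4.99-fold to 7.64-fold). In HCT116 it was 1.25 (SE 0.15, adjusted p = 6.5e-15), a 2.38-fold increase (1.93-fold to 2.92-fold). By Wald statistic, the log2 fold change over its SE, TIGAR ranked 43rd of all genes in RPE-1 and 496th in HCT116. The difference between the lines was 1.38 (SE 0.22, adjusted p = 1.18e-08). The annotation holds a gene on the same strand that shares 18.1% of the exon bases of TIGAR, and it is not among the genes listed.

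TIGAR resembles the phosphatase part of the PFKFB enzymes, which make and break down the same sugar phosphate. PFKFB4 rose in RPE-1 with a log2 fold change of 1.10 (SE 0.12, adjusted p = 9.14e-19) and stood at −0.02 (SE 0.12, adjusted p = 0.946) in HCT116. PFKFB3, whose product mainly makes fructose-2,6-bisphosphate, fell in RPE-1 by 0.29 (SE 0.12, adjusted p = 0.0499) and rose in HCT116 by 0.71 (SE 0.12, adjusted p = 2.35e-08). Both differed between the lines, with 1.11 (SE 0.17) for PFKFB4 and −0.99 (SE 0.17) for PFKFB3 as RPE-1 minus HCT116. PFKFB1 and PFKFB2 were not called in either line.

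PANK1 (ENSG00000152782, chr10:89579497-89645242 on the minus strand) had the reverse order of lines. In HCT116 its log2 fold change was 1.99 (SE 0.12, adjusted p = 1.56e-56), a 3.97-fold increase (95% interval 3.36-fold to 4.70-fold), and PANK1 ranked 86th of all genes by Wald statistic. In RPE-1 it was 0.44 (SE 0.13, adjusted p = 0.00335), a 1.35-fold increase (1.13-fold to 1.61-fold). RPE-1 minus HCT116 came to −1.55 (SE 0.18, adjusted p = 4.82e-16), the largest statistic for a difference among the 9 genes. The RPE-1 call was lost with SEs multiplied by 1.5 (adjusted p = 0.109).

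PANK1 is 1 of several pantothenate kinase genes. PANK2 had 0.12 (SE 0.10, adjusted p = 0.416) in RPE-1 and rose in HCT116 with 0.38 (SE 0.09, adjusted p = 0.000416). PANK3 had −0.24 (SE 0.12, adjusted p = 0.129) and 0.22 (SE 0.12, adjusted p = 0.192). The 95% interval of PANK1 in HCT116, from 1.75 to 2.23, lies above those of its relatives there. Along the later steps of coenzyme A synthesis, PPCS rose in RPE-1 with 0.67 (SE 0.11, adjusted p = 3.58e-09) and PPCDC fell by 0.30 (SE 0.10, adjusted p = 0.00936). Of the 6 genes on this list other than PANK1, 1 rose and 1 fell in RPE-1, and 1 rose in HCT116. The shares of all genes were 19.3% higher and 13.6% lower in RPE-1, and 14.9% higher and 12.2% lower in HCT116.

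**Figure D2:**
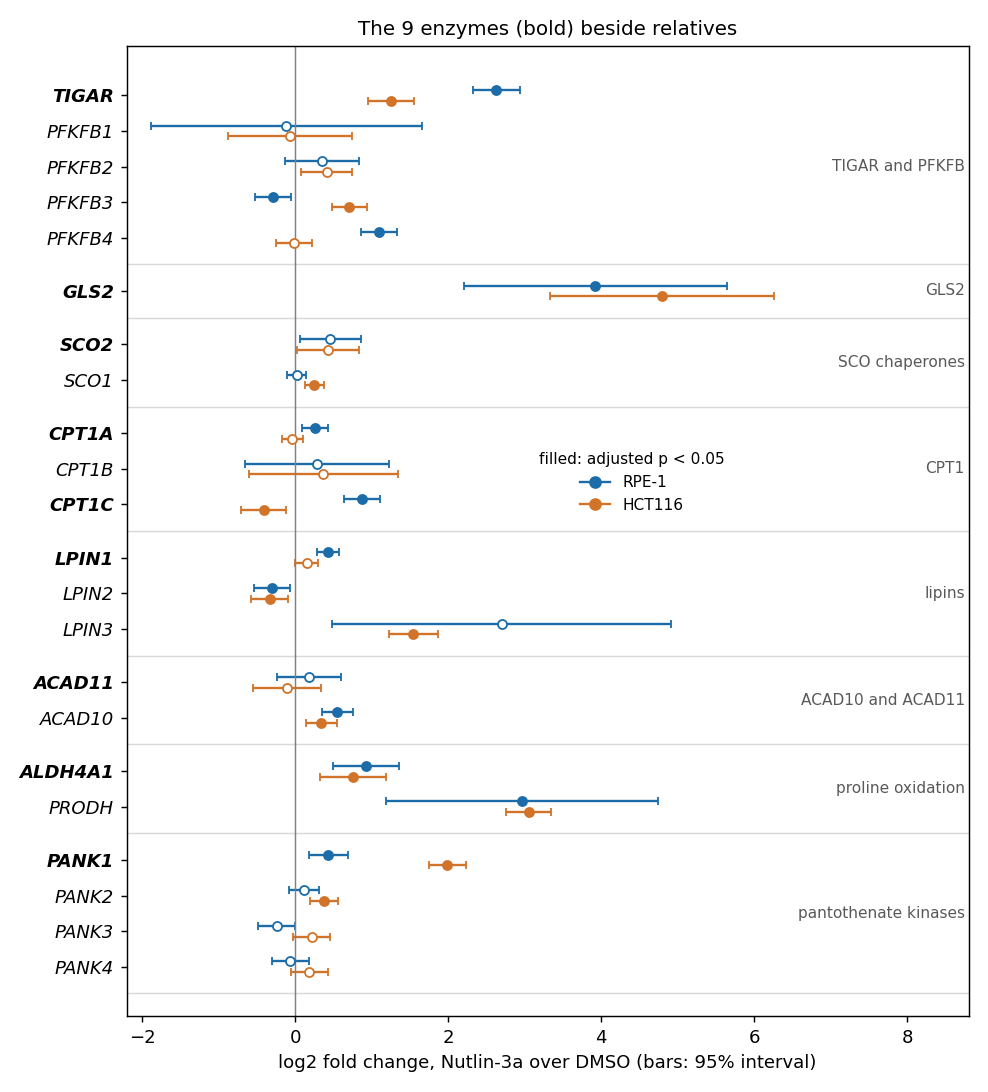
Log2 fold change with Nutlin-3a over DMSO (horizontal axis) of the 9 genes (bold) and of relatives or partners in the same step, in RPE-1 (blue) and HCT116 (orange), with 95% intervals; filled points have an adjusted p under 0.05. PANK1 in HCT116 lies above PANK2, PANK3 and PANK4, and the interval of CPT1C in RPE-1 lies above that of CPT1A.

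ALDH4A1 (ENSG00000159423, chr1:18871430-18902724 on the minus strand) rose in both lines. Its log2 fold change was 0.93 (SE 0.22, adjusted p = 0.00015) in RPE-1, or 1.91-fold (95% interval 1.41-fold to 2.57-fold). In HCT116 it was 0.75 (SE 0.22, adjusted p = 0.00363), or 1.69-fold (1.25-fold to 2.28-fold). The difference of 0.18 (SE 0.31, adjusted p = 0.77) has an interval from −0.43 to 0.79, so a moderate difference in either direction was not detectable. The HCT116 call was lost with SEs multiplied by 1.5 (adjusted p = 0.129).

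PRODH, the proline dehydrogenase that catalyses the step before ALDH4A1, had a larger change. PRODH rose with 2.96 (SE 0.91, adjusted p = 0.00474) in RPE-1 and 3.05 (SE 0.15, adjusted p = 2.03e-90) in HCT116. ALDH18A1, which opens the opposite route from glutamate to proline, fell by 0.41 (SE 0.11, adjusted p = 0.000601) in RPE-1 and had 0.16 (SE 0.11, adjusted p = 0.313) in HCT116. None of the 3 PYCR genes, which close that route, was called in either line. PYCR1 had −0.45 (SE 0.19, adjusted p = 0.0557) in RPE-1, close to the threshold, and was named after its values were seen. On the list of 6 genes of proline metabolism, ALDH4A1 not counted, 1 rose and 1 fell in RPE-1, and 1 rose in HCT116. The shares of all genes were 19.3% higher and 13.6% lower in RPE-1, and 14.9% higher and 12.2% lower in HCT116.

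CPT1C (ENSG00000169169, chr19:49690898-49713731 on the plus strand) was called in opposite directions in the lines. It rose in RPE-1 with a log2 fold change of 0.87 (SE 0.12, adjusted p = 4.48e-12), a 1.83-fold change with a 95% interval from 1.56-fold to 2.15-fold. It fell in HCT116 by 0.41 (SE 0.15, adjusted p = 0.0265), to 0.752-fold with an interval from 0.613-fold to 0.923-fold. The difference was 1.28 (SE 0.19, adjusted p = 1.14e-09), and 319 of all genes were likewise called higher in RPE-1 and lower in HCT116. The decrease in HCT116 is less firm than the increase in RPE-1, since its adjusted p rose to 0.287 with SEs multiplied by 1.5.

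CPT1A (ENSG00000110090, chr11:68754620-68844410 on the minus strand) is the form of most tissues and changed far less. It rose in RPE-1 with 0.26 (SE 0.09, adjusted p = 0.00932), a 1.20-fold change (95% interval 1.07-fold to 1.35-fold), and had −0.04 (SE 0.07, adjusted p = 0.758) in HCT116. The RPE-1 interval, from 0.09 to 0.43, lies below that of CPT1C in the same line, from 0.64 to 1.11. RPE-1 minus HCT116 was 0.30 (SE 0.11, adjusted p = 0.0338). Once the median log2 fold change was taken out, CPT1A had 0.18 in RPE-1 and was not called (adjusted p = 0.0909), nor was it with SEs multiplied by 1.5 (adjusted p = 0.168). CPT1B, the muscle form, had 0.29 (SE 0.48) and 0.37 (SE 0.50) and was not called in either line.

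**Figure D3:**
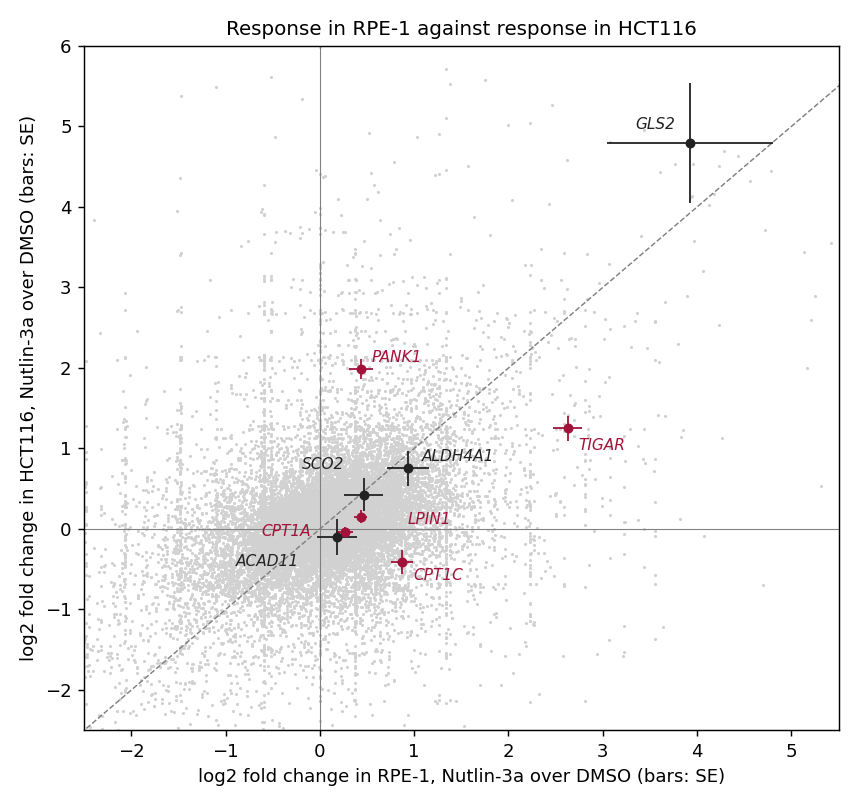
Log2 fold change with Nutlin-3a over DMSO in RPE-1 (horizontal axis) and HCT116 (vertical axis), with standard errors as bars; grey points are 20764 genes whose base mean was 10 or more, the dashed line marks equal values, and genes outside the axes are not drawn. TIGAR, CPT1C, CPT1A and LPIN1 (red) lie below the dashed line and PANK1 (red) above it, and the 4 genes in black did not pass the test of a difference.

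The other genes of the carnitine shuttle, which carries fatty acids into mitochondria, mostly rose in RPE-1. Of the 6, 5 rose in RPE-1 and 3 in HCT116, and none fell in either line. Among all genes, 19.3% were called higher in RPE-1 and 14.9% in HCT116, and 13.6% and 12.2% lower. SLC25A20, the carnitine-acylcarnitine carrier of the inner membrane, rose with 1.20 (SE 0.14, adjusted p = 2.03e-15) in RPE-1 and had 0.03 (SE 0.14, adjusted p = 0.917) in HCT116, a difference of 1.16 (SE 0.20, adjusted p = 2.3e-07). CRAT, carnitine acetyltransferase, rose with 0.69 (SE 0.20) in RPE-1 and had −0.20 (SE 0.20) in HCT116. CROT, the peroxisomal counterpart, rose in both, with 0.63 (SE 0.17) in RPE-1 and a poorly fixed 3.84 (SE 1.26, adjusted p = 0.0107) in HCT116. The other two genes that rose in both lines were CPT2, with 0.65 (SE 0.11) and 0.66 (SE 0.11), and SLC22A5, with 0.35 (SE 0.09) and 0.40 (SE 0.09), and both were named after their values were seen.

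LPIN1 (ENSG00000134324, chr2:11677595-11827409 on the plus strand) rose slightly in RPE-1. Its log2 fold change there was 0.43 (SE 0.07, adjusted p = 1.7e-08), a 1.35-fold change (95% interval 1.22-fold to 1.48-fold), one of the smallest SEs among the 9 genes at the highest base mean. In HCT116 it was 0.15 (SE 0.08, adjusted p = 0.148), or 1.11-fold (0.999-fold to 1.24-fold). The difference of 0.28 (SE 0.11, adjusted p = 0.0407) was close to the threshold, and without a limit on base mean its adjusted p was 0.0503.

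The other lipins went different ways. LPIN2 fell by 0.30 (SE 0.12, adjusted p = 0.0373) in RPE-1 and fell by 0.33 (SE 0.12, adjusted p = 0.0301) in HCT116. LPIN3 rose in HCT116 with 1.55 (SE 0.17, adjusted p = 2.81e-19) and had 2.70 (SE 1.13, adjusted p = 0.0508) in RPE-1, where its SE was much wider. Among the other genes of this step, PLPP1, a membrane phosphatidate phosphatase, rose in RPE-1 with 0.69 (SE 0.14, adjusted p = 6.01e-06) and DGAT1, which makes triglycerides, rose in HCT116 with 0.75 (SE 0.21, adjusted p = 0.00238). DGAT2, the other enzyme of that step, fell by 0.51 (SE 0.15, adjusted p = 0.00446) in HCT116 and had −0.07 (SE 0.13, adjusted p = 0.77) in RPE-1. PLPP3, a further membrane phosphatase, rose in RPE-1 with 0.54 (SE 0.17, adjusted p = 0.00519) and had −0.09 (SE 0.18, adjusted p = 0.784) in HCT116. On the list of 7, LPIN1 not counted, 2 rose and 1 fell in RPE-1, and 2 rose and 2 fell in HCT116. The shares of all genes were 19.3% higher and 13.6% lower in RPE-1, and 14.9% higher and 12.2% lower in HCT116.

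ACAD11 (ENSG00000240303, chr3:132558138-132660082 on the minus strand) was not called in either line. Its log2 fold change was 0.18 (SE 0.21, adjusted p = 0.61) in RPE-1, with a 95% interval from −0.24 to 0.59, and −0.10 (SE 0.22, adjusted p = 0.812) in HCT116, with an interval from −0.54 to 0.34. Folds between 0.847 and 1.51 in RPE-1 and between 0.686 and 1.26 in HCT116 lie within these intervals. ACAD11 had the lowest base mean of the 9 genes.

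ACAD10, its closest relative, rose in both lines, with 0.55 (SE 0.10, adjusted p = 1.26e-06) in RPE-1 and 0.34 (SE 0.10, adjusted p = 0.00507) in HCT116. Of the 18 genes of acyl-CoA dehydrogenases and beta-oxidation, ACAD10 included, 6 rose and 1 fell in RPE-1, and 2 rose and 4 fell in HCT116. Among all genes, 19.3% were called higher and 13.6% lower in RPE-1, and 14.9% higher and 12.2% lower in HCT116. ACADVL, which opens the oxidation of very long chains, rose with 0.43 (SE 0.08) in RPE-1 and 0.57 (SE 0.08) in HCT116. HADHB, a subunit of the trifunctional protein, rose in RPE-1 with 0.51 (SE 0.10, adjusted p = 2.62e-06) and had −0.04 (SE 0.10, adjusted p = 0.865) in HCT116. HADH, a dehydrogenase of the third step, fell by 0.62 (SE 0.10, adjusted p = 1.37e-09) in HCT116 and had 0.01 (SE 0.09, adjusted p = 0.99) in RPE-1. ACAA2, the thiolase of the last step, fell by 0.96 (SE 0.13, adjusted p = 5.77e-13) in HCT116 and had −0.27 (SE 0.14, adjusted p = 0.123) in RPE-1. In the test of the difference itself, 6 of these 18 genes had the higher log2 fold change in RPE-1 and none the lower one. Of all genes tested, 11.3% had the higher one in RPE-1 and 10.4% the lower one. RPE-1 had a median of 0.24 over these genes and HCT116 one of −0.11, beside 0.06 and 0.09 over all genes.

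**Figure D4:**
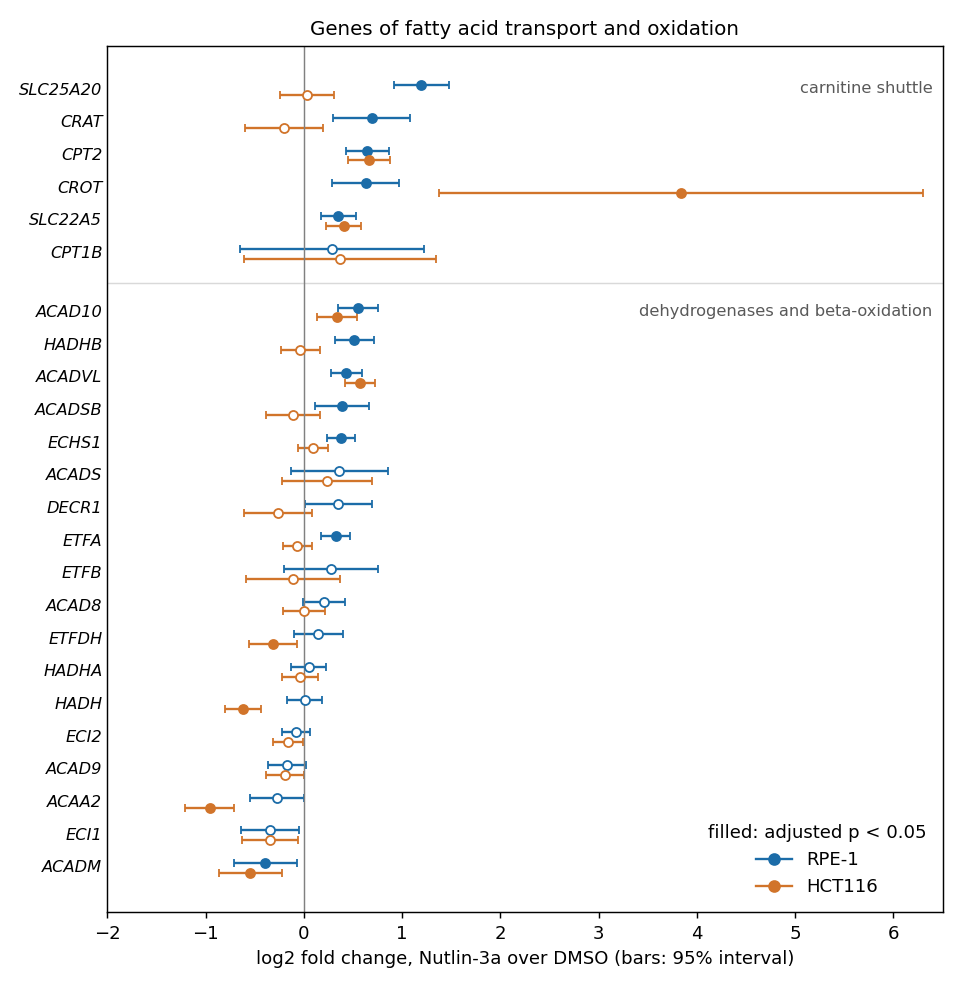
Log2 fold change with Nutlin-3a over DMSO (horizontal axis) of 6 carnitine shuttle genes (top) and 18 genes of acyl-CoA dehydrogenases and beta-oxidation (bottom) in RPE-1 (blue) and HCT116 (orange), with 95% intervals; filled points have an adjusted p under 0.05. In RPE-1, 5 of the 6 carnitine shuttle genes have filled points to the right of 0, and in HCT116 HADH and ACAA2 have filled points to its left.

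SCO2 (ENSG00000284194, chr22:50523568-50526461 on the minus strand) had nearly the same log2 fold change in both lines and passed in neither. It was 0.46 (SE 0.21, adjusted p = 0.0703) in RPE-1, or 1.38-fold (95% interval 1.04-fold to 1.82-fold), and 0.43 (SE 0.21, adjusted p = 0.114) in HCT116, or 1.35-fold (1.02-fold to 1.78-fold). The unadjusted p-values were 0.0247 and 0.0369 by the Wald test of the deposited fit across all genes. The difference of 0.03 (SE 0.29, adjusted p = 0.961) has an interval from −0.53 to 0.60. The locus is crowded. NCAPH2, a condensin gene on the other strand, covers 62.1% of the exon bases of SCO2 and fell by 2.13 (SE 0.12) in RPE-1 and fell by 2.11 (SE 0.12) in HCT116. TYMP on the same strand covers 26.1%, with 0.44 (SE 0.42) and 0.49 (SE 0.33), not called. The part of either in the value of SCO2 was not tested.

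SCO1, the partner of SCO2 in copper delivery, had 0.02 (SE 0.06, adjusted p = 0.867) in RPE-1 and rose in HCT116 with 0.25 (SE 0.06, adjusted p = 0.000364). Of the 10 assembly factors of cytochrome c oxidase, SCO1 included, 1 rose in RPE-1, and 5 rose and 1 fell in HCT116. The shares of all genes were 19.3% higher and 13.6% lower in RPE-1, and 14.9% higher and 12.2% lower in HCT116. SURF1 rose in both lines, with 0.997 (SE 0.12, adjusted p = 1.09e-14) in RPE-1 and 0.47 (SE 0.12, adjusted p = 0.000614) in HCT116. COX20 rose in HCT116 with 0.98 (SE 0.18, adjusted p = 4.56e-07) and had −0.11 (SE 0.18, adjusted p = 0.732) in RPE-1, and COX11 rose in HCT116 with 0.38 (SE 0.07, adjusted p = 2.06e-06).

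By size in RPE-1, the order was GLS2, TIGAR, ALDH4A1, CPT1C, SCO2, PANK1, LPIN1, CPT1A and ACAD11. GLS2 and TIGAR had overlapping 95% intervals, as did ALDH4A1 and CPT1C, while the interval of TIGAR lay above those of the 7 genes after it. In HCT116 the order was GLS2, PANK1, TIGAR, ALDH4A1, SCO2, LPIN1, CPT1A, ACAD11 and CPT1C. There the intervals of GLS2, PANK1 and TIGAR did not overlap, and that of TIGAR overlapped with ALDH4A1. Over the 70 partner genes of all lists together, 19 rose and 12 fell in each line, with medians of 0.04 for RPE-1 and 0.01 for HCT116. Among all genes, 19.3% were called higher and 13.6% lower in RPE-1, and 14.9% higher and 12.2% lower in HCT116.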

How the data were processed

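The 12 libraries were grouped by cell line and treatment from their titles. Per the labels, ribosomal RNA was depleted and libraries were stranded, while poly(A) selection is named in the paper's methods, which call the RPE-1 replicates biological. For HCT116 this is not stated, so its p-values may measure only technical spread. The submitters' notes name Trimmomatic 0.39, cutadapt 3.3, SAMtools 1.12, featureCounts 2.0.1, DESeq2 1.32.0 and hg38, and the methods state counting by strand. In the deposited tables, log2 columns give the fold change and its SE. P-value columns, raw and adjusted, come from the authors' Wald test with Benjamini-Hochberg adjustment. The deposited score is the Wald statistic, and the base mean is a deposited signal, the average of normalized counts, with equal values in both tables. The tables thus hold results of the authors' own comparisons and 0 columns of single libraries. These results are printed as deposited, no model was refitted, and only the values between the lines, the intervals, the ranks and the counts were computed from them. The adjusted p-values matched an adjustment over all listed genes within 1.55e-15.

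Intervals are normal 95% limits. The difference between the lines was divided by the root of the summed squared SEs for a two-sided normal p, which was adjusted over the 20764 genes left by a base mean minimum of 10. The errors of the lines were taken as independent, and whether both comparisons share 1 fit is not given in the sources used here. The test was also run on simulated data drawn with independent normal errors of the deposited SEs. Such data share its assumptions and cannot check them. Members and gene lists were chosen with earlier results of these data known. Named are the 9 genes, per list up to 3 genes with the largest absolute log2 fold change among those called in a line, the closest relatives, genes whose exons overlap a member (GENCODE 44), MDM2 and CDKN1A. Some genes that this rule covers are not reported here. Alternatives varied the threshold, the width of the SEs, the zero point and the base mean minimum. Computation used Python 3.11.15 with matplotlib 3.10.9, scipy 1.17.1, pandas 2.3.3 and numpy 2.4.6.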

Additional observations from a re-analysis of the deposited data

Results flagged for a closer look

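For 5 of the 9 genes, the change with Nutlin-3a differed between the cell lines in a test of the difference itself. The test covered the 20764 genes whose base mean was 10 or more, of which 11.3% were called above 0 and 10.4% below 0. Without that minimum, 4 members were called. Values are given here as RPE-1 minus HCT116 on the log2 scale. PANK1 had −1.55 (SE 0.18), CPT1C 1.28 (SE 0.19) and TIGAR 1.38 (SE 0.22), each past the threshold also with SEs multiplied by 1.5. CPT1A had 0.30 (SE 0.11, adjusted p = 0.0338) and LPIN1 0.28 (SE 0.11, adjusted p = 0.0407), and both lost the threshold with the wider SEs. Cell line and any batch of culture or sequencing cannot be told apart here.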

How the results depend on the processing

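No paired analysis was possible because values of single libraries were not at hand, and for the same reason leaving out a replicate was not run. Of 144 values of single members, 124 stayed on 1 side of the threshold with the direction unaltered, 20 lost the threshold, and none turned. Many of the 124 were fixed beforehand and are no check. The median difference between the lines was 0, so taking it out left each value as it was, with −1.55 for PANK1. Stricter limits and wider SEs only remove calls, so members not called at first stayed so there. The direction was free to turn only where the median log2 fold change of a line was taken out.

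With an absolute log2 fold change of at least 1, 2 members were called in RPE-1, both higher, and 3 in HCT116. All genes called then numbered 1313 higher and 1435 lower for RPE-1, and 1161 and 1188 for HCT116. With SEs multiplied by 1.5, 5 members were called in RPE-1, without CPT1A and PANK1, and 3 in HCT116, and all genes called numbered 2571 higher and 2143 lower for RPE-1, and 1897 and 1758 for HCT116. Between the lines, 3 members were called with wider SEs (778 genes above 0 and 764 below), 3 at an adjusted p under 0.01 (1544 above), and 3 with a difference of at least 1 (944 above and 697 below). Of the partner genes, 7 were lower in RPE-1 at an adjusted p under 0.01, against 12 at 0.05. All of these limits are stricter by construction. Depth per library is unknown, and the wide SEs of GLS2 leave the size of its change poorly fixed.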

Other observations

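Regulators of fatty acid oxidation, 6 genes that the report counts only among the partners, did not move together. PPARGC1B, a transcriptional coactivator of mitochondrial genes, fell by 1.05 (SE 0.15, adjusted p = 5.88e-11) on the log2 scale in RPE-1 and rose in HCT116 with 0.62 (SE 0.12, adjusted p = 3.24e-06), a difference of −1.68 (SE 0.19, adjusted p = 7.65e-16 in the test between the lines). PPARD, a nuclear receptor that binds fatty acids, rose in HCT116 with 0.83 (SE 0.11, adjusted p = 2.56e-12) and had −0.21 (SE 0.11, adjusted p = 0.143) in RPE-1. ACACB, whose product malonyl-CoA inhibits CPT1, fell by 0.99 (SE 0.16, adjusted p = 4.3e-09) in RPE-1 and fell by 1.31 (SE 0.11, adjusted p = 1.46e-32) in HCT116. MLYCD, which breaks malonyl-CoA down, rose with 0.80 (SE 0.11, adjusted p = 8.44e-12) in RPE-1 and 0.44 (SE 0.10, adjusted p = 0.000132) in HCT116. In all, 2 of these genes rose and 2 fell in RPE-1, and 3 rose and 1 fell in HCT116. The shares of all genes were 19.3% higher and 13.6% lower in RPE-1, and 14.9% higher and 12.2% lower in HCT116.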
